A study of Mus musculus with 9 samples.

Results

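The genes described here carry symbols for proteins of the mitochondrial ribosome and for nuclear-encoded subunits of respiratory complex I. They were followed through the accessible chromatin regions assigned to them in wild-type embryonic heart tissue. A region was taken as a member when its deposited gene symbol was Mrpl or Mrps followed by digits only, or Ndufa, Ndufb, Ndufc, Ndufs or Ndufv followed by digits only, and a region listed in several rows entered once. Of 17164 regions, 80 were members: 56 were assigned to 46 mitochondrial ribosome genes and 24 to 21 complex I genes. The symbol alone chose them, and no width, position or sequence was used. Both groups follow the symbols. Whether each product, such as that of Ndufa4 or Mrps36, is a subunit of the ribosome or of complex I was not checked.

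The study profiled pharyngeal mesoderm together with hearts of mouse embryos at E8.75, the stage of 6 somites, by ATAC-seq, in which a transposase inserts sequencing adapters into open chromatin. Its 9 libraries comprised 3 of wild-type control embryos, 3 of Isl1 knockout embryos (Isl1-/-) and 3 of embryos that carry Isl1-Cre and a floxed Brg1 gene (Isl1Cre+/-/ Brg1fl/fl), in which recombination is limited to cells with an Isl1-Cre history. The file analysed was 1 list of regions found in all 3 wild-type libraries, in mm9 coordinates, with a start, an end, a signed distance to a transcription start site (TSS) and 1 gene for each region, and the libraries of both mutant genotypes were not analysed here. The list held no peak height and no value of a single library, so there were no replicates, the sequencing depth was unknown, no test was possible, and the intervals below (95% Wilson intervals for shares, 95% order-statistic intervals for medians) cover counting error over regions or genes only. Among genes of the early heart, the list assigned 9 regions to Isl1, 5 to Mef2c, 1 to Gata4 and 1 to Hand2, whereas Nkx2-5, Tbx5, Tnnt2 and Myh6 had none assigned.

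Mitochondria keep a small genome of their own whose messages are translated inside the organelle. The mitochondrial ribosome that does this has a large subunit (MRPL proteins), which forms peptide bonds, and a small subunit (MRPS proteins), which reads the message, and all its proteins are made in the cytosol from nuclear genes and imported. Complex I, NADH:ubiquinone oxidoreductase, is the entry enzyme of the respiratory chain. It passes electrons from NADH through flavin and iron-sulfur centers to ubiquinone and pumps protons across the inner membrane. Its core subunits carry out the chemistry, its accessory subunits surround and stabilize the core, and its proton-pumping core subunits are encoded by mitochondrial DNA and are among the products of the mitochondrial ribosome. Promoters of nuclear genes for mitochondrial proteins are known for binding sites of NRF1, of the ETS family factor GABP, of YY1 and of estrogen-related receptors.

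Examples of member genes that start close to another gene on the opposite strand are shown first. They are read from the NCBIM37 (mm9) reference genome, 5′ to 3′ on the strand of the gene named first. They do not stand for most members: starts of at least 2 genes were found in 17 of 64 member promoter regions (26.6%), against 18% of all promoter regions. In the opening pair of genes, a large and a small subunit gene of the mitochondrial ribosome lie head to head in 1 accessible region. In the next, the core complex I gene Ndufs3 lies head to head with Kbtbd4, also in 1 region. In the last, a mitochondrial ribosome gene and a complex I gene start 20 bp apart on opposite strands, and no region was listed there. Whether the last pair lies head to head was not classified. Capitals mark the stretch from one annotated start to the other, both included, with 30 bases on either side in lower case.
Mrpl46 and Mrps11, chr7:85927922-85928035, minus strand: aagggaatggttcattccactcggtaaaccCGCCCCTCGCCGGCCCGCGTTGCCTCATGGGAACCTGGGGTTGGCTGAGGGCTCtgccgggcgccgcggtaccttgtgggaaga
Ndufs3 and Kbtbd4, chr2:90744829-90744927, minus strand: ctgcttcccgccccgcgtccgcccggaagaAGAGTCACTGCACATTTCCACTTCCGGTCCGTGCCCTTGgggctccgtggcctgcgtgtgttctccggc
Mrpl47 and Ndufb5, chr3:32636019-32636099, minus strand: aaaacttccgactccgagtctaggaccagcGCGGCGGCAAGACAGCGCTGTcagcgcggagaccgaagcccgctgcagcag

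The first question was how many genes of each machine had an accessible region. Of 75 mitochondrial ribosome genes in the RefSeq catalog, 46 had an assigned region (61.3%, interval 50.0 to 71.5%), and of 37 complex I genes, 21 had one (56.8%, 40.9 to 71.3%). The shares of the 2 groups differed by less than the width of either interval. Over all protein-coding genes the share was 49.3% (10364 of 21031), which lay below the interval of the mitochondrial ribosome and within that of complex I. Genes of the cytoplasmic ribosome, the machine that translates nuclear messages, stood at 60.0% (48 of 80). The large subunit (29 of 49 genes) and the small subunit (17 of 26), like the core (4 of 7) and accessory subunits of complex I (17 of 30), were covered to a similar degree.

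The deposited list assigns each region to 1 gene, so a gene that shares its promoter with a neighbor can be left without a region of its own. When a region centered within 1 kb of any GENCODE start of the gene was counted, whatever gene it was assigned to, 56 of 75 mitochondrial ribosome genes (74.7%) and 25 of 36 complex I genes with an annotated start (69.4%) had one. The background was 47.2% of coding genes, and 48 of 78 cytoplasmic ribosome genes (61.5%). For 11 mitochondrial ribosome genes (14.7%) and 4 complex I genes (11.1%) such a region was present but was assigned only to another gene, against 4.69% of all coding genes and 5.13% of cytoplasmic ribosome genes. Keeping only the wider regions of the list, from its median of 1123 bp upward, left no higher share than in other genes. Such a region was assigned to 18 of 75 mitochondrial ribosome genes (24.0%) and 10 of 37 complex I genes (27.0%), beside 32.6% of all coding genes. The interval of 18 in 75 (15.8 to 34.8%) holds 32.6%, and no interval was computed for complex I, so a lower share is not shown.

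**Figure D1:**
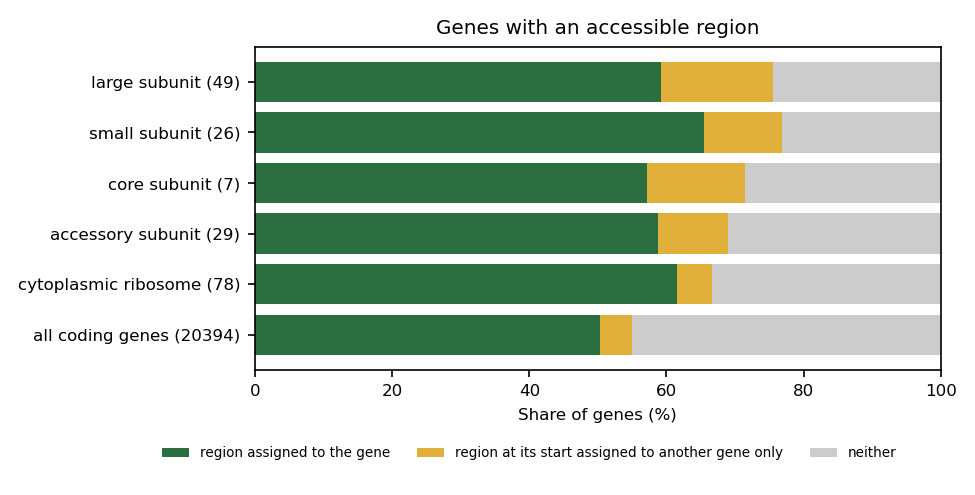
Bars show the share of genes (%) with a region assigned to the gene, with a region centered within 1 kb of its start but assigned to another gene only, and with neither, for the subunit classes of both machines, cytoplasmic ribosome genes and all coding genes (number of genes in parentheses). The middle class takes 14.7% of mitochondrial ribosome genes, 11.1% of complex I genes and 4.69% of all coding genes.

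These 15 genes, with no region of their own and a start inside a region credited to another gene, come from both machines. Among large subunit genes, Mrpl10 lay in the region of Lrrc46, Mrpl13 in that of Mtbp, Mrpl18 in that of Tcp1, which encodes a subunit of the cytosolic chaperonin, and Mrpl30 in that of Mitd1. Mrpl32 lay in the region of the proteasome gene Psma2, Mrpl40 in that of the histone chaperone gene Hira, Mrpl50 in that of Zfp189 and Mrpl55 in that of the noncoding gene 2610507I01Rik. Among small subunit genes, Mrps11 lay in the region of Mrpl46, Mrps6 in that of the inositol transporter gene Slc5a3 and Mrps7 in that of Gga3. In complex I, the accessory genes Ndufa11, Ndufb9 and Ndufs5 lay in regions of Vmac, Tatdn1 and BC002163, and Ndufs1, which encodes the largest core subunit with iron-sulfur centers, lay in the region of the translation elongation factor gene Eef1b2. BC002163 carries a noncoding RefSeq entry in the deposited list, and the RefSeq table used here did not hold the symbol, so whether it names a separate gene or the Ndufs5 locus itself cannot be told apart. Mrpl48 and Mrps27, which had a region of their own elsewhere, also had a start in a region of another gene, Rab6a and Ptcd2.

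For 18 mitochondrial ribosome genes (24.0%) and 11 complex I genes (30.6%), neither kind of region was listed, against 45.0% of all coding genes. The large subunit genes among them were Mrpl2, Mrpl11, Mrpl14, Mrpl23, Mrpl27, Mrpl33, Mrpl43, Mrpl47, Mrpl49, Mrpl52, Mrpl53 and Mrpl58. The small subunit genes were Mrps2, Mrps5, Mrps10, Mrps21, Mrps24 and Mrps34. In complex I they were the accessory genes Ndufa1, Ndufa6, Ndufa7, Ndufa9, Ndufa10, Ndufb5, Ndufb8, Ndufb10 and Ndufc2 and the core genes Ndufs7 and Ndufs8. No GENCODE start was matched to Ndufb1, which had no assigned region either. The center of the nearest region lay as close as 1557 bp from a start of Mrpl2 (region of Cul7) and 2692 bp from Ndufb10 (region of Snhg9), and as far as 122243 bp from Mrpl14 and 168183 bp from Ndufa10. A region enters the list only when it was found in all 3 libraries, so a start without one is not shown to be closed.

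The nuclear-encoded core subunits are the catalytic heart of complex I. Ndufv1, which encodes the flavin-bearing subunit that takes electrons from NADH, had a region of 956 bp (chromosome 19, 4012397 to 4013352). Ndufv2, its iron-sulfur partner, had one of 1471 bp (chromosome 17, 66450089 to 66451559). Ndufs3 had one of 1128 bp (chromosome 2, 90744263 to 90745390). Each of these regions held an annotated start of its gene. Ndufs1 had its start in the region of Eef1b2, and for Ndufs7 and Ndufs8, which carry iron-sulfur centers next to the ubiquinone site, the nearest region was centered 8064 bp and 61113 bp away.

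The next question was where the member regions lay. Of the mitochondrial ribosome regions, 43 of 56 (76.8%, 64.2 to 85.9%) were centered within 1 kb of the assigned TSS and are called promoter regions below, as were 21 of 24 complex I regions (87.5%, 69.0 to 95.7%). Both shares were higher than the 52.9% of all regions and near the 84.6% of cytoplasmic ribosome regions. Large subunit regions were at the promoter in 28 of 33 cases and small subunit regions in 15 of 23. The center of a promoter region lay a median of 87 bp from the TSS in both groups and 112 bp over the whole list. All 43 promoter regions of the mitochondrial ribosome and 20 of 21 of complex I spanned the annotated start. The exception was Ndufa13, an accessory subunit also known as GRIM-19, whose region (chromosome 8, 72426494 to 72427794) had its downstream edge at -37 bp from the start and was centered in an exon of Tssk6.

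**Figure D2:**
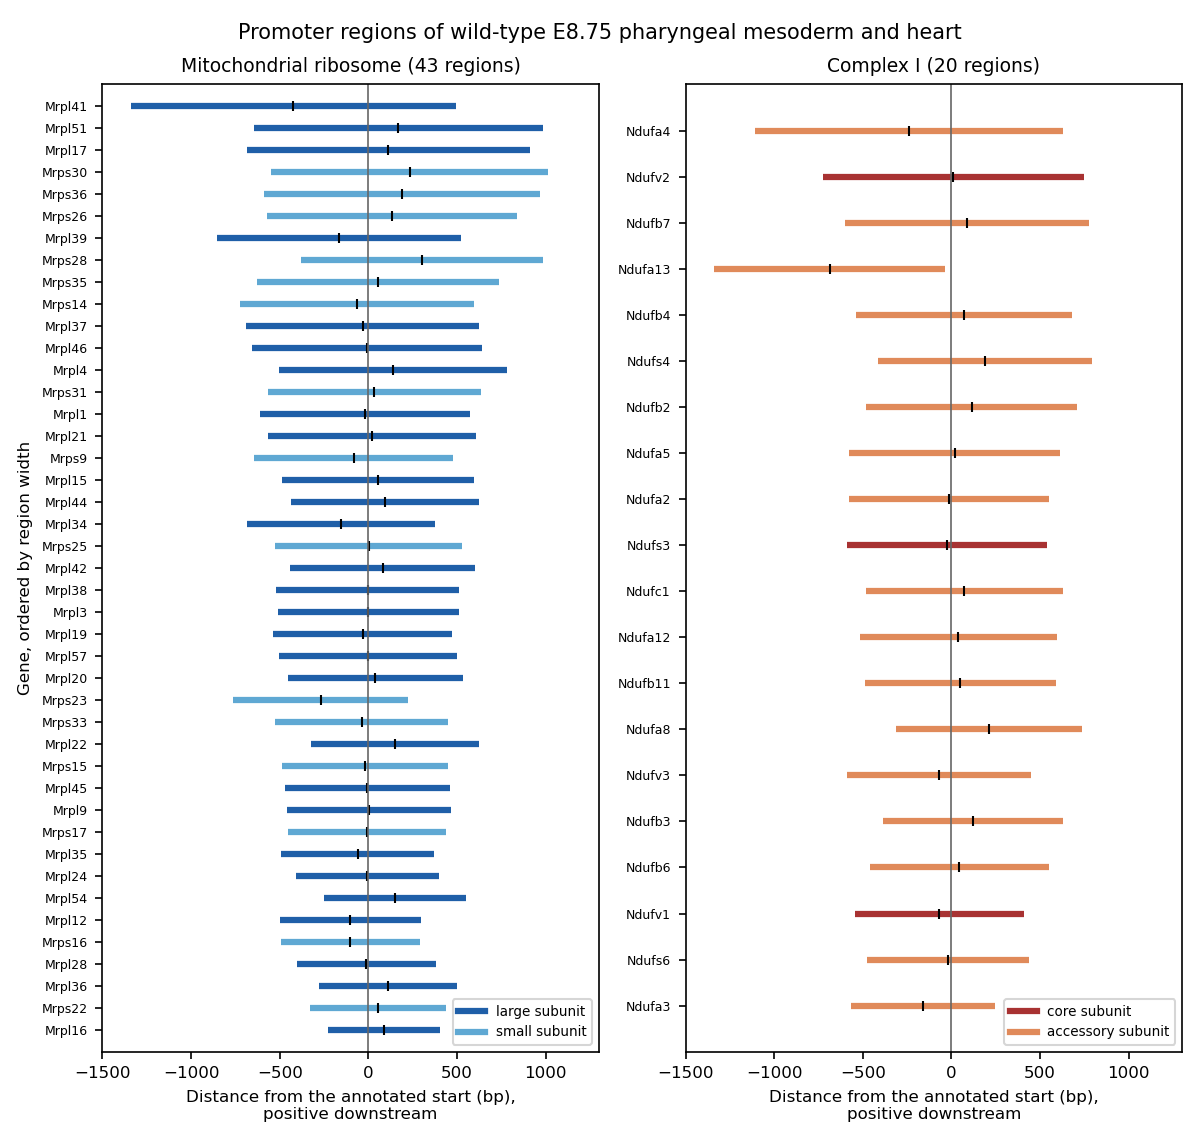
Each horizontal line is 1 promoter region of a member gene, drawn from its upstream to its downstream edge in bp from the annotated start nearest to its center (0, positive downstream), with a tick at the center, and genes are ordered by region width. The lines of 43 mitochondrial ribosome genes and 19 of the 20 complex I genes drawn cross 0, and that of Ndufa13 ends at -37 bp.

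Most genes had a single assigned region, as over the whole list. The counts were 37 of 46 mitochondrial ribosome genes (80.4%, 66.8 to 89.3%) and 18 of 21 complex I genes (85.7%, 65.4 to 95%). Both intervals held the 73.2% of all genes in the list. The 12 genes with more than 1 were Mrpl1, Mrpl9, Mrpl15, Mrpl46, Mrps14, Mrps23, Mrps28, Mrps30, Mrps33, Ndufa4, Ndufa8 and Ndufa13, and Mrps28 alone had 3. Mrpl48, Mrps12 and Mrps27, which are among the genes with a single region, had none at the deposited TSS.

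The 16 regions farther than 1 kb from the TSS, 13 of the mitochondrial ribosome and 3 of complex I, were centered between genes in 9 cases, in introns in 6 and in an exon in 1. Assignment there rests on nearness, and no contact with a promoter was measured. The widest was a region of 2475 bp centered at -61583 bp from the TSS of Mrps33 (chromosome 6, 39821281 to 39823755), wider than any member promoter region. The farthest lay 216206 bp downstream of the TSS of Mrps30 and 113893 bp downstream of that of Ndufa4, beyond the gene in both cases. Regions centered 57504 bp and 72863 bp downstream of the TSS of Mrps28 lay in introns of that gene, as did those at 12199 bp in Mrpl1 and 8455 bp in Mrps27. The region assigned to Mrps12 at 8814 bp lay in an intron of Fbxo17, and that assigned to Ndufa13 at -34127 bp in an intron of Gatad2a. The exonic one, listed at -8143 bp from Mrpl48, was centered 153 bp from another annotated start of Mrpl48 itself. The centers of these 16 regions held a median of 2.33 CpG dinucleotides per 100 bp (0 to 6.33), against 8.0 in member promoter regions (2.33 to 14.7). The whole list showed a like difference, with 1.67 in all regions over 1 kb from the TSS and 8.67 in all promoter regions.

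Member promoter regions were narrow. The median width was 1046 bp (interval 977 to 1187 bp, range 630 to 1837 bp, n = 43 regions) for the mitochondrial ribosome and 1112 bp (1016 to 1210 bp, range 812 to 1738 bp, n = 21) for complex I, and the intervals overlapped. Over all 9083 promoter regions the median was 1294 bp (1284 to 1304 bp), above both intervals, and cytoplasmic ribosome genes were at 1102 bp (1003 to 1216 bp). Only 12 of 43 mitochondrial ribosome regions (27.9%) and 4 of 21 complex I regions (19.0%) reached the median of all promoter regions. None of the 64 reached 2 kb, against 9.97% of all promoter regions. The median was 1025.5 bp for the large subunit, 1125 bp for the small subunit, 1042 bp for the core and 1112 bp for the accessory subunits. Width grows with sequencing depth and with the fixed fragment extension of the peak caller, which act on all regions of a list, so widths are compared within the list only.

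The narrowest promoter regions of the mitochondrial ribosome were those of Mrpl16 (630 bp), Mrps22 (765 bp) and Mrpl36 (778 bp), and the widest those of Mrpl41 (1837 bp), Mrpl51 (1626 bp) and Mrpl17 (1597 bp). In complex I, Ndufa3 (812 bp) and Ndufs6 (916 bp) were narrowest and Ndufa4 (1738 bp), Ndufv2 (1471 bp) and Ndufb7 (1378 bp) widest. Of the widest regions, those of Mrpl41, Mrpl51 and Ndufa4 also held the start of a second gene. The median of promoter regions with starts of 1 gene was 1009 bp (n = 35) for the mitochondrial ribosome, 1110 bp (n = 11) for complex I and 1283 bp over the whole list. Member regions were thus below the median of the list also where no other gene started in the region.

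**Figure D3:**
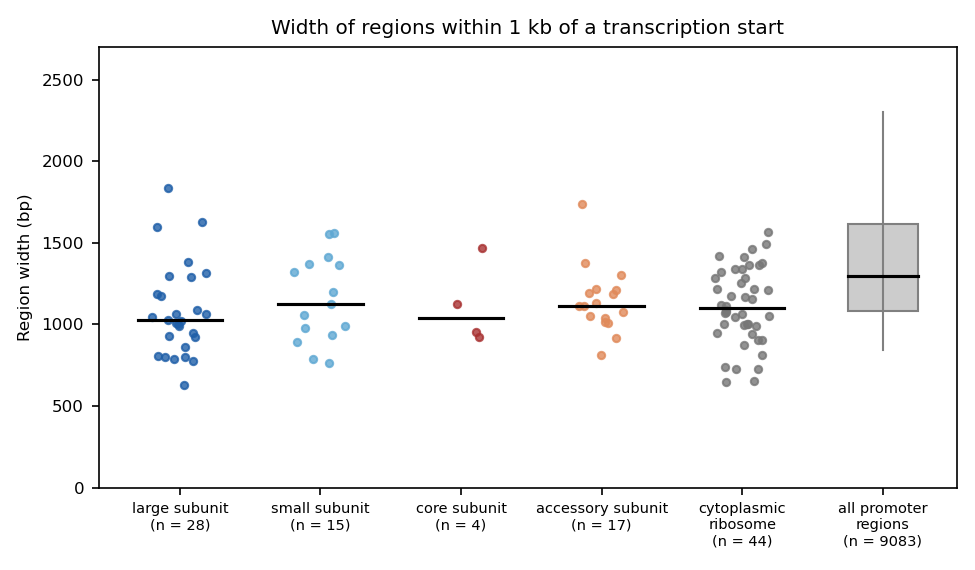
Points are the widths (bp) of single promoter regions of the large and small mitochondrial ribosome subunits, the core and accessory subunits of complex I and the cytoplasmic ribosome, with a line at each median, and the box shows the quartiles of all 9083 promoter regions (1084 and 1612.5 bp) with whiskers from the 5th to the 95th percentile. Medians of the member classes lie between 1025.5 and 1125 bp, below the 1294 bp of all promoter regions.

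Other genes of the same pathways, from lists of named genes, gave a frame for these values. Of 13 complex I assembly factors, which build the enzyme without staying in it, 12 had an assigned region, with Ndufaf1 the exception. The factors that copy and transcribe mitochondrial DNA had one in 12 of 14 cases, including Tfam and Polrmt, and the mitochondrial translation factors in 10 of 13, including Tufm and Gfm1. For subunits and assembly genes of the other respiratory complexes the counts were 11 of 15 for complex V, 6 of 11 for complex III, 10 of 20 for complex IV and 3 of 6 for complex II. The nuclear regulators had one in 5 of 11 cases, namely Nrf1, Gabpb1, Yy1, Esrra and Esrrg, and none was assigned to Ppargc1a, which encodes the coactivator PGC-1α. Over all coding genes the share was 49.3%. Counting any region within 1 kb of a GENCODE start changed the order of the lists. It gave 12 of 13 translation factors, 12 of 13 assembly factors, 5 of 6 genes of complex II and 8 of 11 of complex III. The others were 12 of 14 mitochondrial DNA and transcription factors, 11 of 15 for complex V, 12 of 20 for complex IV and 7 of 11 regulators. Median promoter width was 1259.5 bp for assembly factors, 1296 bp for mitochondrial DNA and transcription factors, 1367 bp for the regulators, 1230 bp for complex III, 1143.5 bp for complex V, 1099.5 bp for complex IV, 1085 bp for complex II and 1013 bp for translation factors. The lists held 6 to 20 genes, and the interval of each list's share with an assigned region overlapped those of both member groups.

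Promoter regions shared with a second gene were more frequent in complex I than over the whole list. In the mitochondrial ribosome their share was near that of the list. In 9 of 21 complex I promoter regions (42.9%, 24.5 to 63.5%) annotated starts of at least 2 genes were found, against 8 of 43 (18.6%) for the mitochondrial ribosome, 18% of all promoter regions and 13.6% for the cytoplasmic ribosome. With protein-coding genes only, the shares were 8 of 21 (38.1%), 7 of 43 (16.3%), 10.9% and 6.82%. The lower bound for complex I lay above the share of all promoter regions, and the intervals of both groups overlapped. The complex I partners were Ik for Ndufa2, Phf14 for Ndufa4, Asb15 for Ndufa5, Morn5 for Ndufa8, Gm16272 for Ndufb2, Fam126b for Ndufb3, Rbm10 for Ndufb11, Kbtbd4 for Ndufs3 and Wdr4 for Ndufv3. For the mitochondrial ribosome they were Ighmbp2 for Mrpl21, Cyb5rl for Mrpl37, Pnpla7 for Mrpl41, Wdfy1 for Mrpl44, Mrps11 for Mrpl46, Ncapd2 for Mrpl51, F630043A04Rik for Mrpl57 and 4930473A02Rik for Mrps26.

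Counting genes whatever gene the region was assigned to raised the share for the mitochondrial ribosome. Of 56 of its genes with a start inside a region, 21 (37.5%, 26.0 to 50.6%) had the start of another gene in the same region, as did 12 of 24 complex I genes (50.0%, 31.4 to 68.6%), 10 of 48 cytoplasmic ribosome genes (20.8%) and 24.9% of all coding genes. Of these 33 members, 26 (78.8%) were transcribed away from the nearest other start, close to the 75.9% of all such genes. The starts of a pair lay a median of 76 bp apart (2 to 935 bp). Those of Ndufs1 and Eef1b2 and those of Ndufb11 and Rbm10 lay 3 bp apart, and those of Mrpl41 and Pnpla7 935 bp. Mrps6 and Slc5a3 start 2 bp apart on the same strand. Signal in a shared region cannot be divided between its genes.

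**Figure D4:**
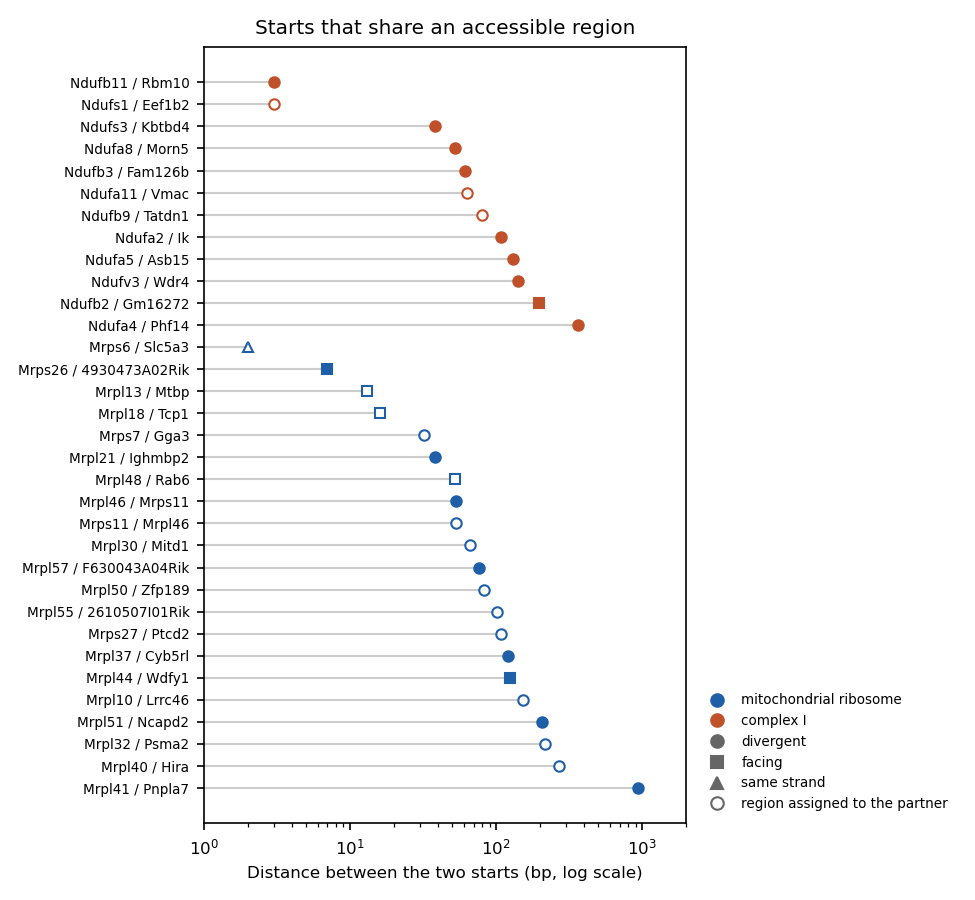
Each symbol is 1 member gene and the nearest start of another gene in the same region, placed by the distance between both starts (bp, log scale), with the shape giving their orientation and an open symbol a region assigned to the partner. Distances run from 2 bp for Mrps6 to 935 bp for Mrpl41, and 26 of the 33 genes are transcribed away from their partner (25 of 32 distinct pairs, since Mrpl46 and Mrps11 appear once each).

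At 3 places in the genome, a pair of member genes started within 10 kb of each other. Mrpl46 and Mrps11, a large and a small subunit gene, start 53 bp apart on chromosome 7 within 1 region of 1297 bp, assigned to Mrpl46, whose shared stretch is printed above. Mrpl36 and Ndufs6 start 2467 bp apart on chromosome 13, and each had a narrow region of its own, of 778 bp (73468179 to 73468956) and 916 bp (73465551 to 73466466). Mrpl47 and Ndufb5 start 20 bp apart on chromosome 3, and no region was listed within 1 kb of either start.

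GC content was slightly lower in member promoter regions than over all promoter regions, as it was in those of the cytoplasmic ribosome. Median GC content of whole promoter regions was 54.2% (52.8 to 55.6%) for the mitochondrial ribosome and 54.9% (54.1 to 56.4%) for complex I, below the 58.1% of all promoter regions. Cytoplasmic ribosome regions were at 56.7% (54.5 to 57.5%). In the central 300 bp the member medians rose to 62.3% and 63.7%, against 66.3% over all promoter regions. The cytoplasmic ribosome was at 60.7% there. CpG frequency in the center was 8.67 per 100 bp for the mitochondrial ribosome (7.33 to 10), 8.0 for complex I (6.67 to 8.67) and 8.67 over all promoter regions. The extremes were Ndufv2, with 14.67 CpG per 100 bp, and Ndufa3, with 2.33. Members without a listed region were as rich in CpG in the window from 250 bp before to 50 bp after an annotated start. For each gene the start with the highest value was taken, whether or not a region lay at it. The median was 9.0 per 100 bp for the 19 mitochondrial ribosome genes without a region within 1 kb and 8.0 for the 56 with one. For 11 and 25 complex I genes the medians were 7.0 and 7.33. Over all coding genes the medians were 2.0 without and 8.67 with such a region.

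Short sequence words known from binding sites of promoter factors were then counted in the central 300 bp of each promoter region, on both strands and with overlaps allowed. A match is a description of the letters and not evidence of binding. The NRF1 core word, GCGCATGCG, was found in 2 of 43 mitochondrial ribosome regions (4.65%) and 1 of 21 complex I regions (4.76%), against 2.58% of all promoter regions. The ETS word, CCGGAAG, was found in 14 of 43 mitochondrial ribosome regions (32.6%, 20.5 to 47.5%) and 2 of 21 complex I regions (9.52%, 2.65 to 28.9%), against 16.2%. The YY1 word, AAGATGGC, was found in 6 of 43 (14.0%, 6.56 to 27.3%) and 4 of 21 (19.0%, 7.67 to 40%), against 4.36%. All 6 mitochondrial ribosome regions with the YY1 word were of the large subunit (6 of 28, 21.4%, 10.2 to 39.5%). Small subunit regions held it in 0 of 15 cases (0 to 20.4%). Cytoplasmic ribosome regions held the YY1 word in 13.6% of cases (6 of 44), near the share of the mitochondrial ribosome. Intervals lay above the background for ETS in the mitochondrial ribosome, for YY1 in both groups and for the estrogen-related receptor word in complex I, and below it for SP/KLF in the mitochondrial ribosome. Because 10 words were counted in 2 groups, single shares of this size carry little weight.

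The SP/KLF word GGGCGG was in 48.8% of mitochondrial ribosome regions (34.6 to 63.2%), an interval below the 69.2% of all promoter regions, and in 57.1% of complex I regions (36.5 to 75.5%). The CCAAT box word CCAAT was in 34.9% and 23.8% (31.7%). The estrogen-related receptor word AAGGTCA was in 1 region of the mitochondrial ribosome, that of Mrpl36, and in 2 of complex I, those of Ndufb4 and Ndufs6 (9.52%, 2.65 to 28.9%, against a background of 2.01%). The E-box word CACGTG was in 6.98% and 4.76% (8.09%), the TATA word TATAAA in 4.65% and 4.76% (3.03%). The CRE word TGACGTCA and the CGCG palindrome CTCGCGAG were each in 1 of 43 and 0 of 21 regions (2.73% and 1.62%).

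**Figure D5:**
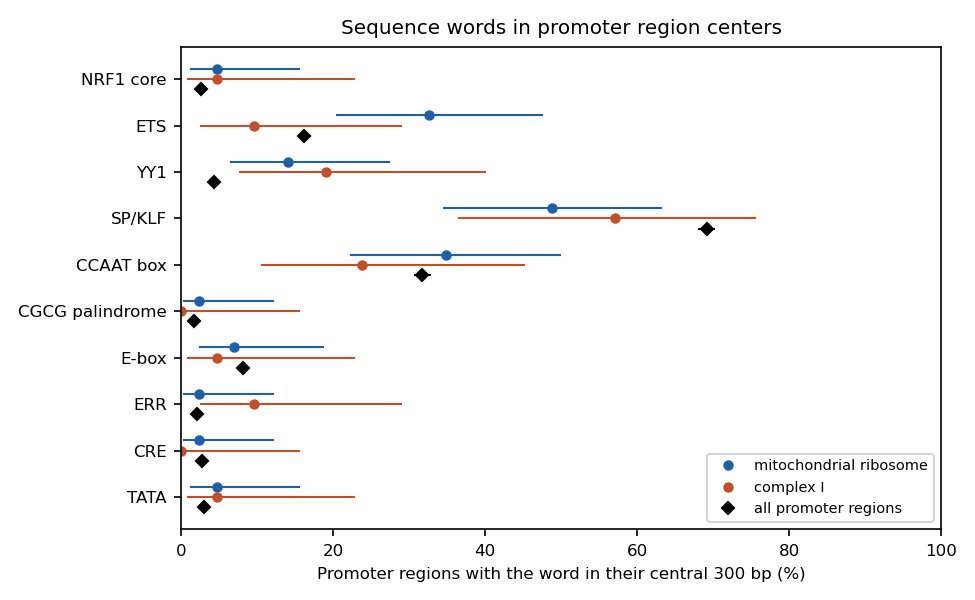
Points give the share (%) of mitochondrial ribosome promoter regions (n = 43), complex I promoter regions (n = 21) and all promoter regions (n = 9083) whose central 300 bp hold each word on either strand, with 95% Wilson intervals as lines. The ETS word is in 32.6% of mitochondrial ribosome, 9.52% of complex I and 16.2% of all regions, and the YY1 word in 14.0%, 19.0% and 4.36%.

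The NRF1 core words are shown with the word in capitals in 30 bases of the reference on the strand of the gene. In all 3 genes the word was found on both strands, shifted by 1 base, as the letters read nearly the same in both directions. It lay at -24 bp from the start of Mrpl9 (negative values are upstream) and at -134 bp from that of Mrpl39, while in Ndufa13 it lay at -777 bp, within the region that does not reach the start.
Mrpl9, chr3:94247221-94247250, plus strand: ggcgcagctgCGCATGCGCggggtccttct
Mrpl39, chr16:84735595-84735624, minus strand: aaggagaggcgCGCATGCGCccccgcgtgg
Ndufa13, chr8:72427220-72427249, minus strand: aatcgaggatgCGCATGCGCtctccagcaa

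Of 15 ETS words in the centers of mitochondrial ribosome regions, 13 were within 100 bp of the start. Of the 15, 8 were on the strand of the gene and 7 on the other. Only the central 300 bp were searched, and these centers lay a median of 87 bp from the TSS. The search itself therefore favored words near the start, and distances were not counted over all promoter regions. The nearest 5 are shown, with both complex I genes that held the word, again in capitals. In Ndufs3 the word printed lies between the starts of Ndufs3 and Kbtbd4, in the stretch shown at the outset. That stretch uses the Ndufs3 start at 90744859, whereas the distance of -75 bp is counted from another annotated start, at 90744799.
Mrps33, word at -2 bp, chr6:39760880-39760909, minus strand: aggggggcgggcCTTCCGGggacgcgcgtg
Mrps26, word at 4 bp, chr2:130389468-130389497, plus strand: ctccgcggccaCTTCCGGgccgggcgcagg
Mrps16, word at -6 bp, chr14:21212769-21212798, minus strand: cttgggggcgctCTTCCGGgcttcaggctc
Mrpl57, word at 7 bp, chr14:58445069-58445098, plus strand: ccccagagagaCCGGAAGcagcgcgccgcc
Mrps22, word at -8 bp, chr9:98502092-98502121, minus strand: aaacctctcgagCCGGAAGttgctctatcg
Ndufb7, word at -17 bp, chr8:86090626-86090655, plus strand: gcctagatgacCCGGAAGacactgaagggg
Ndufs3, word at -75 bp, chr2:90744860-90744889, minus strand: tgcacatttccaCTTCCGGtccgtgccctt

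The ETS word was not limited to genes with a listed region. In the window from 250 bp before to 50 bp after any annotated start, 25 of 56 mitochondrial ribosome genes with a region within 1 kb (44.6%, 32.4 to 57.6%) and 11 of 19 without one (57.9%, 36.3 to 76.9%) held it. For complex I the counts were 6 of 25 (24.0%) and 2 of 11 (18.2%). Over all coding genes the shares were 24.8% with and 8.99% without a region, and over cytoplasmic ribosome genes 43.8% and 53.3%. Thus mitochondrial and cytoplasmic ribosome genes had like shares of the word, and complex I genes with a region were at the share of all such genes.

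The side and strand of the YY1 words were alike in complex I and less so in the mitochondrial ribosome. In complex I all 4 lay downstream of the start, at 28 to 96 bp, on the strand of the gene. In the mitochondrial ribosome 5 of 6 were on the strand of the gene, at -2 to 52 bp from the start (that of Mrpl38 at -2 bp, the others downstream), and that of Mrpl36, on the other strand, lay at -26 bp. The letters ATG inside the word coincided with an annotated start codon in 7 of these 10 regions (70.0%, 39.7 to 89.2%), among them those of Mrpl35, Mrpl38, Mrpl46, Ndufa2, Ndufc1 and Ndufs6, against 46.2% of the 396 promoter regions with the word (41.4 to 51.1%). The word is shown in capitals for 8 of the 10 genes.
Mrpl35, chr6:71773737-71773766, minus strand: aggcaggctgcAAGATGGCggcttccatct
Mrpl36, chr13:73468416-73468445, plus strand: cgtgaccttacGCCATCTTtcttcctggcg
Mrpl37, chr4:106739427-106739456, minus strand: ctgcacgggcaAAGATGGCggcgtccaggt
Mrpl38, chr11:116000076-116000105, minus strand: gacctgggggaAAGATGGCggcgccctggt
Mrpl42, chr10:94964538-94964567, minus strand: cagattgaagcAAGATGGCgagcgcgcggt
Mrpl46, chr7:85927899-85927928, minus strand: gggaagacagaAAGATGGCggcgcccgtag
Ndufc1, chr3:51212837-51212866, minus strand: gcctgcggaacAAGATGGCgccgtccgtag
Ndufs6, chr13:73465879-73465908, minus strand: gggtcaccggcAAGATGGCggcggtgctga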

How the data were processed

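ATAC-seq libraries of wild-type pharyngeal mesoderm and hearts were processed by the authors: reads were aligned to mm9 with Bowtie2, proper pairs were kept with SAMtools, duplicates were marked with Picard 1.136, peaks were called with MACS, blacklisted sites were removed, and regions overlapping by at least 1 bp between replicates were kept with bedtools 2.15. The tool that assigned regions to genes is not given in the sources used here. No transposase offset is stated, so edges are not insertion sites. The deposited list (17432 rows, 17164 regions, coordinates read as 1-based) held no per-library values, and 0 columns of per-sample values were left unmapped.

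Starts, exons and start codons came from GENCODE vM1 and sequence from NCBIM37, the build of the files. The gene catalog was RefSeq, matched by accession, symbol or earlier symbol. The central 300 bp, 250 bp before to 50 bp after a start and a promoter limit of 1 kb were used in Python 3.11.15 (pandas 2.3.3, numpy 2.4.6, scipy 1.17.1, matplotlib 3.10.9). The values of 1 member gene are not reported here singly, though counts and medians include it. Counting steps were tested on simulated data. Members, gene lists and words were chosen with earlier results of these data known. Named genes were those with no region, more than 1 region or a region beyond 1 kb, the 3 widest and 3 narrowest promoter regions of each group, the core subunits and members that share a region. Sequences shown for shared starts and for the ETS and YY1 words, and the heart genes checked, were chosen after values were seen. For NRF1 the rule was a word in the center together with another listed word, which Mrpl39 and Ndufa13 met, and Mrpl9 was added after its values were seen.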

Additional observations from a re-analysis of the deposited data

How the results depend on the processing

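No paired analysis was possible because the 3 libraries entered 1 list, and for the same reason no library could be left out. With only the wider regions of the list, from its median width upward, there were 19 mitochondrial ribosome and 10 complex I regions, and 24.0% and 27.0% of genes with one. Counting any region within 1 kb of a GENCODE start moved the mitochondrial ribosome to 74.7%. In the central 300 bp, median GC content was 62.3% for the mitochondrial ribosome and 63.7% for complex I. Median CpG frequency was 8.67 and 8.0 per 100 bp. These medians lay above those of the whole regions. Not every member rose: GC content of Ndufb11 was 58.1% over its region and 48.0% in the center. Over whole regions the ETS word was in 51.2% of mitochondrial ribosome promoters, beside 33% of all promoter regions. In the window around the start the NRF1 word was in 0 of 21 complex I promoter regions (0%) and in 4 of 43 of the mitochondrial ribosome (9.3%). Over all promoter regions with a matched start the share was 3.67%, and at 21 regions 0 cannot be told apart from it. Of 46 recomputed values of the main comparisons, 35 stayed within the interval of the reported value or within 1.5 times its count. Some of these could not move: no member region was listed more than once, so values from all rows as deposited had to equal the reported ones. Depth was unknown, so narrow regions may be missing from the list.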
